A study of Mus musculus with 22 samples.

Results

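The 33 genes described here encode enzymes of cholesterol synthesis (18 genes), enzymes of fatty acid synthesis and desaturation (9 genes), and their regulators together with a sterol carrier (6 genes). They were listed by name, and a gene's value is that of its probe set, a group of array probes, which the array's probe table assigns to that gene alone. Where a gene had more than 1 such probe set, the one with the higher mean over all arrays was used. Of the 33 genes, 32 had such a probe set, and Acat2, a thiolase of the sterol branch, was not analysed here. A gene was tested where it lay above the median of an array on at least 2 arrays, which kept 29 of the 33 genes and 11830 of 19937 genes in all. The tested members were 16 sterol enzymes, 7 fatty acid enzymes and 6 regulators and carriers. Lss, Scd1 and Elovl6 lay below the array median on every array and were not tested.

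The RNA came from mouse brain cells sorted as triple positive for CD11b, CD45 and F4/80, which the labels call microglia, the macrophages of brain tissue. Each of 22 Affymetrix arrays gave 1 sample, in 8 groups. The 11 WT arrays were from chow-fed mice (WT control, n = 2), mice fed cuprizone at 0.2% of the feed (WT cuprizone, n = 3), mice fed the tocopherol mixture Covi-Ox T70 at 0.1% with further alpha tocopherol (WT Covi-Ox, n = 3), and mice fed both (WT both, n = 3). The 11 arrays from Trem2(-/-) mice, called KO here, were KO control (n = 2), KO cuprizone (n = 3) and 2 sets of 3 arrays whose labels conflict. In set A the title names both additives and the other fields name Covi-Ox alone, and in set B the fields disagree the other way round. No reading was chosen, so no diet is named for a single set, while the mean of sets A and B stands for the Covi-Ox diets under either reading. The array labels give 4 weeks of treatment, and the protocol describes 2 weeks of Covi-Ox, or of chow for the mice on cuprizone alone, beforehand. Cuprizone is a copper chelator whose feeding kills oligodendrocytes, the cells that make myelin, and Trem2 is a lipid-binding receptor of microglia. The labels name no cell type to which the deletion is limited. Nothing in the labels says whether replicates came from separate mice, and the spread behind the p-values is that between these samples and may be technical.

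As background, cells build cholesterol from acetyl-CoA through mevalonate, squalene and lanosterol, and build fatty acids from the same precursor through malonyl-CoA. Both branches are controlled by the SREBP transcription factors, encoded by Srebf1 and Srebf2. Scap escorts them to the Golgi for cleavage when sterols are low, and Insig1 and Insig2 hold them in the endoplasmic reticulum when sterols are high. In the brain, cholesterol does not cross from the blood in useful amounts, and microglia that take up myelin debris receive a large load of sterol. Sterol excess also activates the LXR receptors, which raise cholesterol export genes such as Abca1 and Apoe and, together with SREBP1, fatty acid genes.

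Deposited values were intensities, and all levels and differences below are on the log2 scale. Array medians lay between 5.17 and 5.27. Trem2 lay between 10.00 and 10.75 on the WT arrays and between 6.40 and 6.83 on the KO arrays, without overlap. All 9 measured microglial markers lay above the array median on every array, with a summed intensity of 20470 to 28330. Their sum was lower in WT cuprizone (21800 to 24360) and WT both (20470 to 20930) than in WT control (26290 to 27140), and 8 of the 9 were called lower on the WT cuprizone diets. Border macrophage markers were also lower there, with sums of 988 to 1618 against 1784 to 2284 on the WT diets without cuprizone, and 3 of 4 were called lower. Of all 11830 genes tested, 702 were called lower and 829 higher on the WT cuprizone diets. Of 10 oligodendrocyte markers, 3 (Mbp, Cnp and Cldn11) lay above the array median on every array, Mobp, Ugt8a, Ermn and Opalin lay below it on every array, and the sum stayed between 396 and 491. No oligodendrocyte marker was called in any of the 17 comparisons. Of 8 astrocyte markers Gfap, Aqp4 and Aldh1l1 lay below it on every array, and Slc1a3 was called lower on the WT cuprizone diets (-0.42 ± 0.10). Neutrophil markers were the most variable, with sums of 3101 and 3121 in WT control, 588 to 2195 in WT cuprizone, 102 to 162 in WT Covi-Ox and 263 to 446 in WT both. Their KO sums were 1842 and 1882 in KO control, 947 to 3170 in KO cuprizone, 233 to 310 in set A and 127 to 653 in set B. S100a8 and S100a9, of the 4 tested, were called lower in WT Covi-Ox against WT control (-5.985 ± 0.705 and -5.24 ± 0.71), where 0.0338% of all genes were called. They were also called lower on the KO Covi-Ox diets (-3.57 ± 0.47 and -3.23 ± 0.48), where 0.144% of all genes were called. Monocyte markers had sums of 326 and 329 in WT control, 211 to 288 in WT cuprizone, 222 to 289 in WT Covi-Ox and 164 to 219 in WT both, and F13a1, 1 of 3 tested, was called lower on the WT cuprizone diets (-0.69 ± 0.21). Endothelial markers had sums of 158 to 248 in WT cuprizone and 203 to 239 in WT both, against 138 to 174 on the WT diets without cuprizone, and Cldn5 lay below the array median on every array. Of 3 tested, Flt1 was called higher on the WT cuprizone diets (1.92 ± 0.20, adjusted p = 1.56e-06) and Pecam1 lower (-0.46 ± 0.14, 0.0382). Immediate-early genes, which respond to tissue handling, had a mean of 9.07 on WT cuprizone array 3, 9.44 and 9.48 on KO cuprizone arrays 2 and 3, and 10.54 to 10.87 on the other arrays. The part of these shifts in the results below was not tested, and in sorted bulk RNA fewer cells of a type and less RNA per cell cannot be told apart.

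The members differed widely in how far they varied. The 8 group means of Acaca spanned 1.80, those of Scd2 1.502, those of Idi1 1.03 and those of Dhcr7 1.01, while 26 of the 32 measured members spanned less than 0.8. Idi1, the isomerase that starts isoprenoid assembly, varied within groups as well as between them, with 4.61 and 7.03 on the 2 WT control arrays. A second, dimmer Idi1 probe set had means of 5.20 in WT control, 4.77 in WT cuprizone, 4.86 in WT Covi-Ox and 4.87 in WT both. In KO it had 4.56 in KO control, 4.465 in KO cuprizone, 4.94 in set A and 4.58 in set B. The Idi1 differences below are those of the brighter probe set. Some, such as that of WT both against WT cuprizone, were much smaller on the dimmer one. Several members were close to the array median and are therefore weakly measured. Fads2 lay above it on 3 of 22 arrays, Tm7sf2 on 5, Fdps on 9 and Idi1 on 13. In all 20 members, among them Hmgcs1, Fdft1, Dhcr7, Scd2, Fads1, Elovl5, Insig1 and Scap, lay above it on all 22 arrays.

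Cuprizone in WT mice changed a few members. Comparing WT cuprizone with WT control, Acaca, Scd2 and Dhcr7 rose, 3 of 29 members tested, where 2.5% of all genes were called. In the Covi-Ox-fed mice, which share no array with that comparison, WT both against WT Covi-Ox, Acaca and Scd2 rose, 2 of 29, where 7.82% of all genes were called. Over both pairs, 6 arrays on cuprizone diets against 5 on diets without it, Acaca, Scd2, Dhcr7 and Srebf2 rose and Fads1 fell, 5 of 29, where 12.9% of all genes were called. The pooled count thus lay near the share of all genes, and the results below are about the single genes.

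Acaca encodes the cytosolic acetyl-CoA carboxylase, which makes malonyl-CoA and commits carbon to fatty acid synthesis. Its levels (probe set 10394538) were 5.14 and 5.12 in WT control, 6.16, 5.75 and 7.05 in WT cuprizone, 5.44, 5.43 and 5.67 in WT Covi-Ox, and 7.00, 7.02 and 6.76 in WT both. All 6 arrays on cuprizone diets were above all 5 arrays without it, and both WT control arrays lay below the array median. The rise was 1.19 ± 0.25 (standard error; 2.28-fold, adjusted p = 0.0115) on chow, 1.42 ± 0.22 (2.67-fold, adjusted p = 0.000323) on Covi-Ox and 1.30 ± 0.17 (2.47-fold, adjusted p = 2.14e-05) over both. The pooled rise was called in all 22 fits that left out 1 array, but on chow it was lost without WT control array 1 (adjusted p = 0.119) or WT control array 2 (0.113), each of which leaves 1 control array. A second, dimmer probe set of the gene had means of 4.39 in WT control, 5.08 in WT cuprizone, 4.44 in WT Covi-Ox and 5.67 in WT both. On it the groups overlapped in both pairs. It ran from 4.125 to 4.66 in WT control against 4.32 to 6.10 in WT cuprizone. In WT Covi-Ox it ran from 3.87 to 5.13 against 5.01 to 6.375 in WT both. It lay above the array median on 1 WT cuprizone array, 2 WT both arrays and no other WT array. With the mean of both probe sets the rise on chow was 0.94 and was not called (adjusted p = 0.108).

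Scd2 encodes a stearoyl-CoA desaturase of brain, which makes monounsaturated fatty acids. Its levels were 7.08 and 7.16 in WT control, 7.89, 7.97 and 9.35 in WT cuprizone, 7.73, 7.29 and 7.46 in WT Covi-Ox, and 8.61, 8.81 and 8.44 in WT both. The cuprizone arrays again lay above all others of their genotype, and WT cuprizone array 3, the array lowest in immediate-early genes, was far above its group. The rise was 1.29 ± 0.30 (2.45-fold, adjusted p = 0.0267) on chow, 1.12 ± 0.27 (2.18-fold, 0.0128) on Covi-Ox and 1.21 ± 0.20 (2.31-fold, 0.000473) over both. Without WT cuprizone array 3 the rise on chow was 0.82 and not called (adjusted p = 0.0671), and it was also lost without WT control array 1 (0.194) or 2 (0.16). The rise on Covi-Ox was lost without WT Covi-Ox array 2 (0.0649) or WT both array 2 (0.064), while the pooled rise was called in all 22 such fits.

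Fads1, a desaturase that makes highly unsaturated fatty acids such as arachidonic acid, moved the other way. Its levels were 8.33 and 8.25 in WT control, 7.91, 8.04 and 7.58 in WT cuprizone, 8.28, 7.91 and 7.93 in WT Covi-Ox, and 7.85, 7.55 and 7.57 in WT both. Each cuprizone group lay below its own diet control, although the pooled groups overlapped. The pooled difference was -0.41 ± 0.10 (1.33-fold lower, adjusted p = 0.0113), and it was lost without WT control array 1 (0.0558). Within the single pairs it was -0.45 ± 0.15 (adjusted p = 0.138) on chow and -0.38 ± 0.14 (0.102) on Covi-Ox.

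The remaining fatty acid enzymes gave smaller pooled differences, none called with all arrays. Fasn, the synthase that assembles the chain, differed by 0.22 ± 0.09 (adjusted p = 0.117), with its highest level, 6.55, on WT cuprizone array 3. Elovl5, an elongase of polyunsaturated chains, differed by 0.19 ± 0.11, Acly, which supplies acetyl-CoA from citrate, by -0.17 ± 0.10, and Fads2 by -0.19 ± 0.12. Fads2, a desaturase of polyunsaturated chains, was called lower without WT cuprizone array 3, by -0.63 on chow (adjusted p = 0.0431) and -0.31 over both pairs (0.0459). It was also called without the 3 arrays low in immediate-early genes, with the same differences (adjusted p = 0.0305 and 0.0356). With all arrays the branch thus held 2 genes raised more than 2-fold, 1 lowered and 4 with 95% intervals between -0.45 and 0.42.

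**Figure D1:**
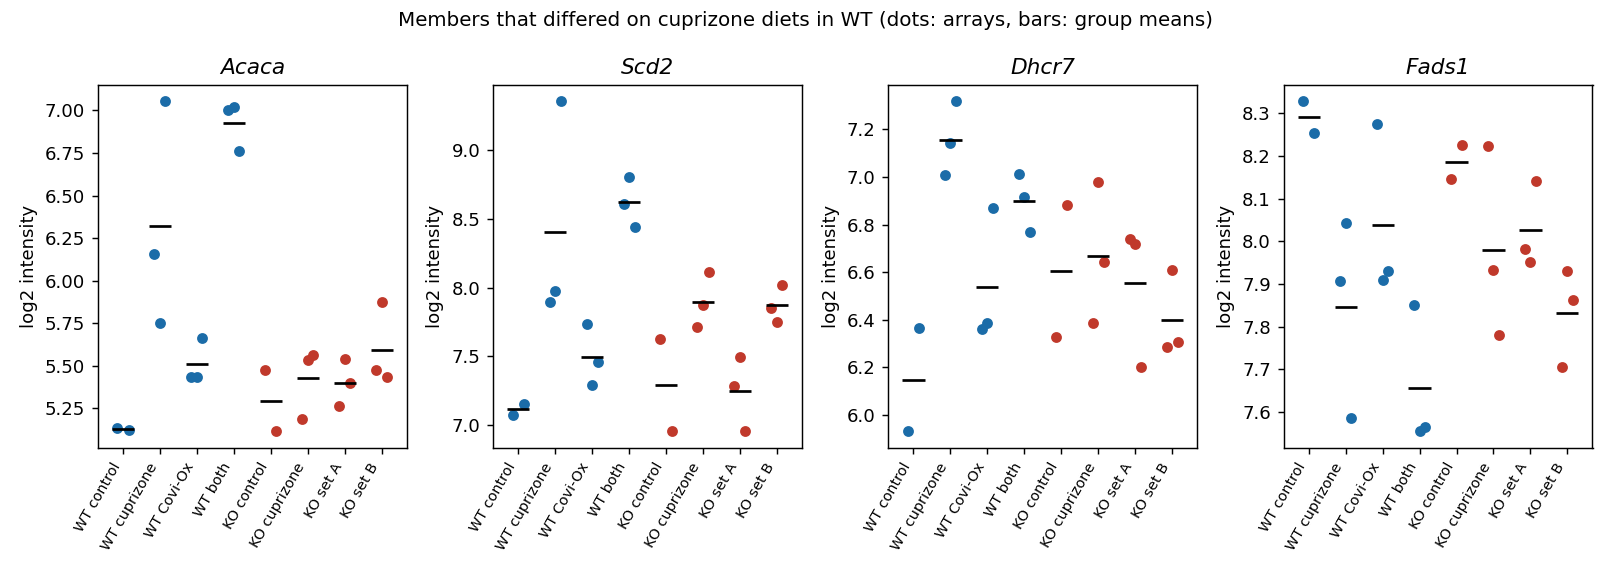
Levels of Acaca, Scd2, Dhcr7 and Fads1 (log2 intensity, vertical axes) on each array, by group, with WT in blue and KO in red. Dots are arrays and bars are group means, and each panel has its own axis range. In WT the 6 cuprizone arrays lie above the other 5 for Acaca and Scd2, while the KO arrays for Acaca stay between 5.12 and 5.88.

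Among the sterol enzymes Dhcr7, the reductase of the last step to cholesterol, was called. Its levels were 5.93 and 6.37 in WT control, 7.01, 7.14 and 7.32 in WT cuprizone, 6.36, 6.39 and 6.87 in WT Covi-Ox, and 7.01, 6.92 and 6.77 in WT both. The 2 chow groups were separate, and the Covi-Ox groups overlapped through 1 array of each. The rise was 1.01 ± 0.21 (2.01-fold, adjusted p = 0.0135) on chow, 0.36 ± 0.19 (0.296, not called) on Covi-Ox and 0.69 ± 0.14 (1.61-fold, 0.00328) over both. The difference between the pairs, -0.65 ± 0.29, was not called (adjusted p = 0.727). Without WT control array 1 the rise on chow was 0.79 (adjusted p = 0.238) and without WT cuprizone array 3 it was 0.93 (0.0647), neither called, and the pooled rise was called in all 22 such fits.

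No other sterol enzyme was called on cuprizone diets in WT. Ebp, a sterol isomerase, differed by 0.39 ± 0.17 (adjusted p = 0.134) in the pooled comparison, and Cyp51, which removes a methyl group from lanosterol, by 0.30 ± 0.12 (0.111). Sqle, the squalene epoxidase that is a control point of the pathway, differed by -0.26 ± 0.12 (adjusted p = 0.163), and Hmgcs1, which makes HMG-CoA at the entry of the pathway, by -0.12 (95% interval -0.30 to 0.06). For 13 of the 16 sterol enzymes the interval of the pooled difference lay within 1.5-fold in either direction, a count not set against the share of all genes. In the Covi-Ox pair, where no sterol enzyme was called, the largest differences were those of Idi1 (0.79 ± 0.51), Ebp (0.41 ± 0.22) and Dhcr7.

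Among the regulators Srebf2, which encodes SREBP2, the main activator of sterol genes, rose by 0.24 ± 0.08 in the pooled comparison (1.18-fold, adjusted p = 0.0489). Its levels were 6.30 and 6.45 in WT control, 6.66, 6.76 and 6.82 in WT cuprizone, 6.56, 6.77 and 6.56 in WT Covi-Ox, and 6.71, 6.96 and 6.54 in WT both. The call stood close to the threshold and was kept in 5 of 22 fits without 1 array, with an adjusted p of up to 0.201. In the chow pair no regulator was called: Srebf2 differed by 0.37 ± 0.11 (adjusted p = 0.102), Insig1 by -0.29 ± 0.12 (0.233) and Srebf1 by 0.26 ± 0.12 (0.264). In the Covi-Ox pair the largest were Insig1 (0.20 ± 0.11), Insig2 (-0.18 ± 0.14) and Srebf2 (0.11 ± 0.10). Insig1, itself a target of SREBPs, thus had differences of opposite sign in the 2 pairs, and its interaction of 0.48 ± 0.16 was not called (adjusted p = 0.593).

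**Figure D2:**
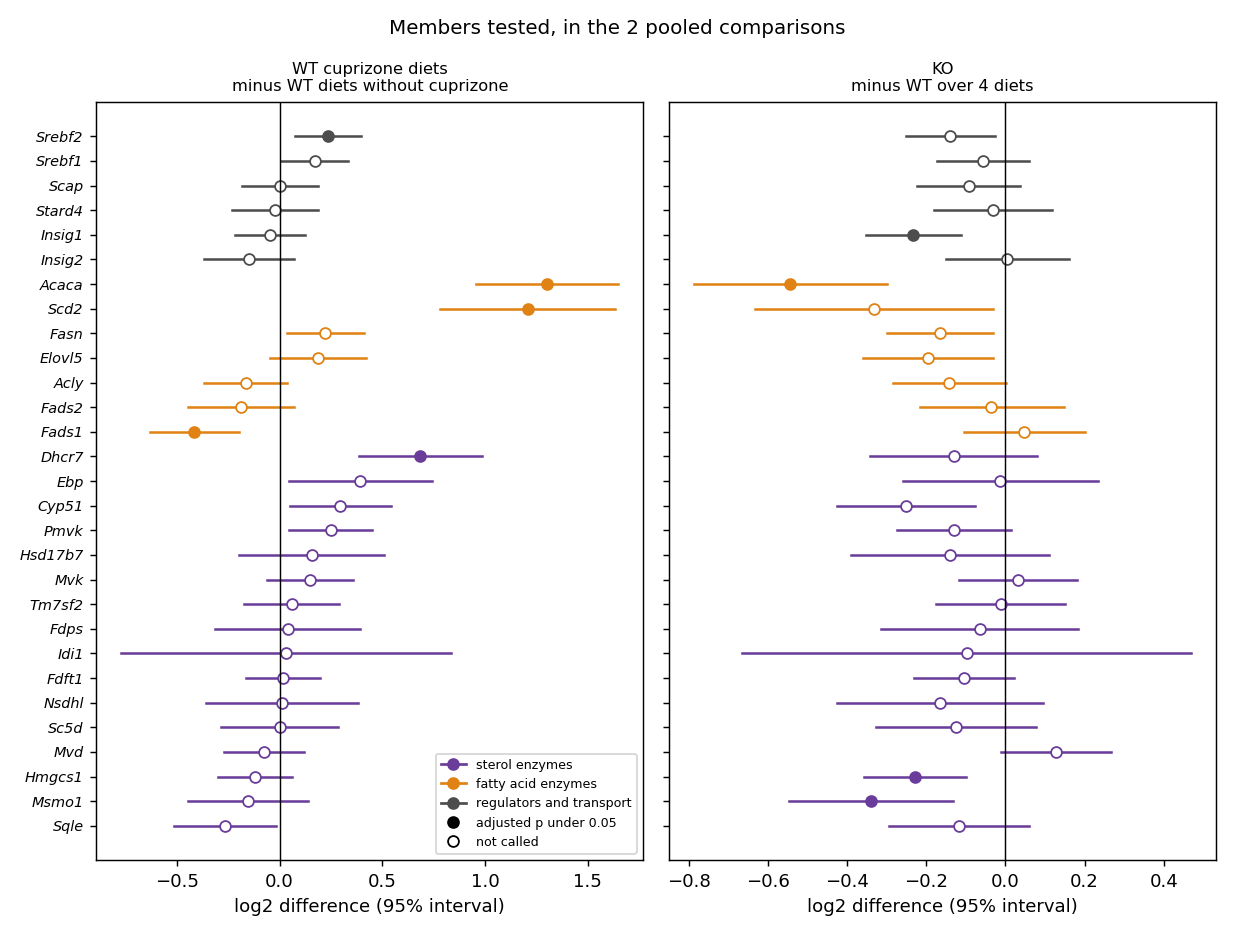
Log2 differences of the 29 tested members (horizontal axes) with 95% intervals from the fitted model, for WT cuprizone diets minus WT diets without cuprizone (left) and KO minus WT over 4 diets (right). Filled dots have an adjusted p under 0.05, colours give the branch and the panels differ in scale. On the left Acaca and Scd2 stand at 1.30 and 1.21, and on the right 25 of 29 members lie below 0.

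The branches were also described as wholes. In the pooled WT comparison the median difference was 0.04 over the 16 sterol enzymes, 0.19 over the 7 fatty acid enzymes and -0.03 over all genes tested. On chow the medians were 0.15 and 0.21 against -0.02, and in the Covi-Ox pair -0.02 and 0.16 against -0.03. Taking each gene relative to its own mean, the fatty acid branch (all 9 genes) averaged -0.01 and -0.07 in WT control and WT Covi-Ox, 0.14 in WT cuprizone and 0.22 in WT both. Among single arrays, those of WT both (0.16 to 0.29) lay above those of WT control (-0.08 and 0.05) and WT Covi-Ox (-0.14 to -0.01), whereas WT cuprizone ran from -0.05 to 0.37. The sterol branch (17 genes) averaged 0.11 ± 0.10 (SD) in WT cuprizone and 0.06 ± 0.07 in WT both, and these arrays overlapped those of WT control (-0.11 and 0.09) and WT Covi-Ox (-0.06 to 0.12). The fatty acid mean minus the sterol mean was 0.16 ± 0.12 (SD, n = 3) in WT both, 0.04 ± 0.18 in WT cuprizone, -0.08 ± 0.07 in WT Covi-Ox and -0.01 ± 0.05 in WT control (n = 2). These branch values rest on genes chosen with earlier results of these data known and carry no test.

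**Figure D3:**
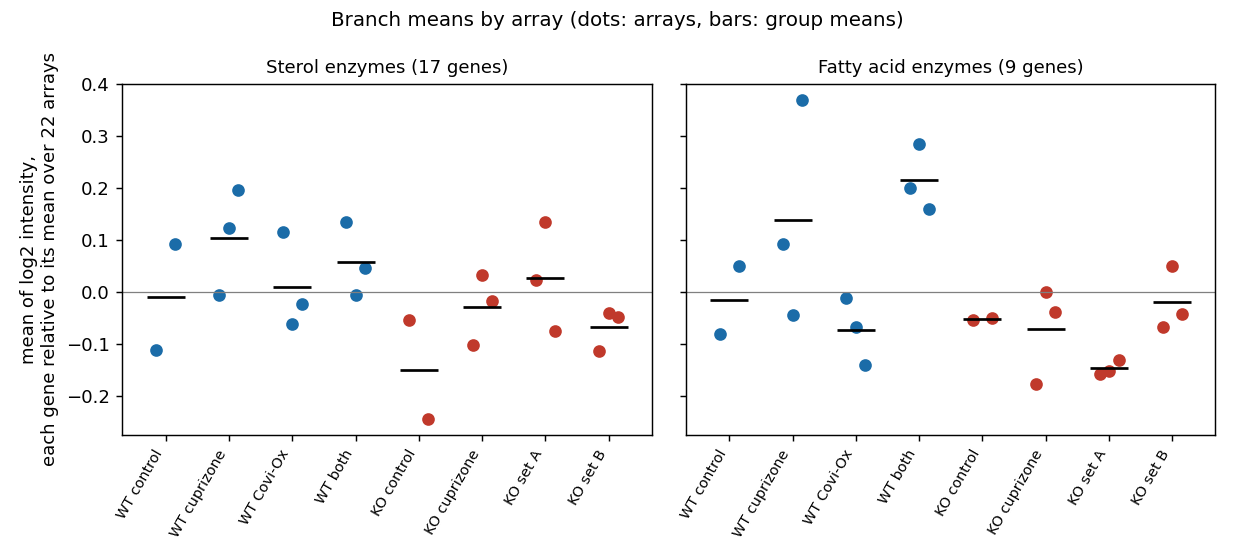
Branch means by array, in log2 units relative to each gene's own mean over the 22 arrays, for 17 sterol enzymes (left) and 9 fatty acid enzymes (right). Dots are arrays (WT blue, KO red) and bars are group means. The fatty acid mean is highest on WT cuprizone array 3 (0.37) and on the WT both arrays (0.16 to 0.29), and the sterol mean is lowest on KO control array 2 (-0.24).

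Without Trem2 the cuprizone diet gave no call among the members. For KO cuprizone against KO control, 0 of 29 members were called by limma (4 at an unadjusted p under 0.05), where 0.0423% of all genes, 5 in number, were called. Acaca was 5.47 and 5.12 in KO control and 5.19, 5.53 and 5.56 in KO cuprizone, a difference of 0.13 with a 95% interval of -0.38 to 0.65. Scd2 was 7.63 and 6.96 against 7.71, 7.87 and 8.11, a difference of 0.61 ± 0.30 (adjusted p = 0.397) with no overlap. The next fatty acid enzymes were Acly (-0.24 ± 0.14) and Fads1 (-0.21 ± 0.15).

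The largest sterol differences in this KO pair were those of Sc5d, a sterol desaturase (0.81 ± 0.20, adjusted p = 0.128), Hsd17b7 (0.64 ± 0.25) and Nsdhl (0.54 ± 0.26), the last 2 being enzymes of sterol demethylation. They rest in part on KO control array 2, on which Sc5d (5.83 against 6.75 on array 1), Msmo1 (5.65 against 6.79), Nsdhl (5.75 against 6.77) and Hsd17b7 (5.05 against 5.66) were at their lowest of all 22 arrays. Without KO control array 1, so against array 2 alone, Sc5d differed by 1.27 (adjusted p = 0.00202) and Msmo1 and Nsdhl were also called. Without KO cuprizone array 1 Fdft1, the squalene synthase, was called lower (adjusted p = 0.0436). Of the regulators, Insig2 (-0.33 ± 0.16), Stard4 (-0.24 ± 0.15), a carrier of sterol between membranes, and Insig1 (0.18 ± 0.12) differed most.

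Whether the cuprizone effect itself differed between genotypes was tested directly. For the KO effect minus the WT effect 0 of 29 members were called by limma (5 at an unadjusted p under 0.05), where 0.228% of all genes were. Among fatty acid enzymes Acaca had -1.06 (95% interval -1.79 to -0.33, adjusted p = 0.33), Scd2 -0.68 ± 0.43 and Fads2 0.45 ± 0.26. Dhcr7 had -0.95 (95% interval -1.58 to -0.31, adjusted p = 0.31), followed by Idi1 (0.90 ± 0.81) and Sc5d (0.63 ± 0.29). Among regulators Insig1 had 0.46 ± 0.17, Srebf2 -0.39 ± 0.16 and Srebf1 -0.33 ± 0.17. A lower effect in KO is therefore a measured value for Acaca and Dhcr7 that did not pass the test over all genes. Without KO control array 1, Msmo1 and Sc5d were called (both adjusted p = 0.0307), and Acaca was (0.0261) once the mean level of the immediate-early genes entered the model.

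On the cuprizone diet Acaca was lower in KO than in WT, by -0.89 ± 0.22 (1.86-fold, adjusted p = 0.0266), with the 3 KO arrays (5.19, 5.53 and 5.56) below the 3 WT arrays (5.75, 6.16 and 7.05). It was the one called member of 29, where 3.8% of all genes were called, and this comparison shares the WT cuprizone arrays with the one on chow above. The call was lost without WT cuprizone array 3 (-0.53, adjusted p = 0.108), without KO cuprizone array 1 (0.0796), 2 (0.0582) or 3 (0.058), and with the mean of both Acaca probe sets (-0.83, 0.0927). Among sterol enzymes Dhcr7 differed by -0.49 ± 0.19 (adjusted p = 0.164), Cyp51 by -0.42 ± 0.16 (0.152) and Fdft1 by -0.40 ± 0.12 (0.0583). Fdft1 was called in the fits without WT cuprizone array 1 (adjusted p = 0.0461) and without KO cuprizone array 1 (0.00499). It was also called with the 75th percentile filter (0.0369), median centring (0.0201), the mean of both Fdft1 probe sets (-0.545, 0.0169) and array weights (0.033). These were 2 of 22 fits without 1 array and 4 of 11 other alternatives. The dimmer Fdft1 probe set had means of 6.515 in WT cuprizone and 5.825 in KO cuprizone. Of the regulators Srebf2 (-0.29 ± 0.10), Srebf1 (-0.24 ± 0.11) and Scap (-0.23 ± 0.12) differed most and none was called. In all, 9 of 29 members, Srebf1, Srebf2 and Scap among them, were lower in KO cuprizone without overlap, where 11.6% of all genes were, and 1, Mvd, was higher without overlap, where 9.04% of all genes were. The KO cuprizone group holds 2 of the 3 arrays low in immediate-early genes and WT cuprizone the third.

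On chow no member was called between genotypes by limma (0 of 29, with 4 at an unadjusted p under 0.05), where 0.0676% of all genes were called. Insig1 differed most among the regulators, with 8.31 and 8.47 in WT control and 7.82 and 7.72 in KO control, a difference of -0.62 ± 0.13 (adjusted p = 0.117). Insig2 (0.20 ± 0.17) and Scap (-0.16 ± 0.14) followed. The sterol values were led by Idi1 (-0.74 ± 0.63), Sc5d (-0.63 ± 0.22) and Msmo1 (-0.56 ± 0.23), and the fatty acid values by Fads2 (-0.37 ± 0.20), Acly (-0.27 ± 0.16) and Scd2 (0.18 ± 0.33). Without KO control array 1 Insig1 (-0.67, adjusted p = 0.0218), Msmo1 (-1.13, 0.00134) and Sc5d (-1.09, 0.00613) were called. With 2 arrays a side, 10 of 29 members were lower in KO control without overlap, where 21.7% of all genes were, and 2 were higher, where 15% of all genes were.

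Averaged over the 4 diets, which holds under either reading of the conflicting labels, Acaca, Insig1, Hmgcs1 and Msmo1 were lower in KO, 4 of 29 members, where 6.37% of all genes were called. All 4 overlapped between genotypes. Acaca differed by -0.54 ± 0.12 (1.46-fold, adjusted p = 0.00679). Since Acaca in WT was high on the cuprizone diets alone, this average mixes diets that differed: the genotype difference was 0.17 on chow, from means of 5.13 in WT and 5.30 in KO, and -0.89 on cuprizone. With the mean of both probe sets the average difference was -0.44 and not called (adjusted p = 0.0775).

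Insig1, which retains the SREBP complex in the endoplasmic reticulum, was lower in KO by -0.23 ± 0.06 (1.17-fold, adjusted p = 0.0185). Its levels ran from 7.98 to 8.48 with a median of 8.23 on the WT arrays. In KO they were 7.82 and 7.72 in KO control, 8.13, 7.80 and 7.90 in KO cuprizone, 8.23, 8.27 and 8.18 in set A, and 8.18, 8.13 and 8.20 in set B. The low values thus stood in KO control and on KO cuprizone arrays 2 and 3, which were also low in immediate-early genes. KO cuprizone array 1 and the 6 arrays of sets A and B lay within the WT range. The call was lost without WT control array 2 (-0.21) or KO control array 2 (-0.22) and without the 3 arrays low in immediate-early genes (-0.20). It was also lost with quantile normalization (-0.17, adjusted p = 0.0831).

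Hmgcs1 was lower in KO by -0.23 ± 0.06 (1.17-fold, adjusted p = 0.0302). Its KO levels were 6.22 and 6.26 in KO control, 6.27, 6.34 and 5.99 in KO cuprizone, 6.41, 6.48 and 6.47 in set A, and 6.25, 6.04 and 6.30 in set B. The WT levels ran from 6.25 to 6.68. With quantile normalization the Hmgcs1 difference was -0.19 and not called (adjusted p = 0.0794). The call was kept in 13 of 22 fits without 1 array, with an adjusted p of at most 0.0741 in the others. Msmo1, an oxidase that removes methyl groups from the sterol ring, was lower by -0.34 ± 0.10 (1.27-fold, adjusted p = 0.0449). With quantile normalization its difference was -0.29 and not called (adjusted p = 0.0831). Without KO control array 2 the difference was -0.20 and not called (adjusted p = 0.0991), and the call was kept in 3 of 22 such fits. Cyp51, shown beside them because it came next in the branch, differed by -0.25 ± 0.08 (adjusted p = 0.0827) and was not called.

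**Figure D4:**
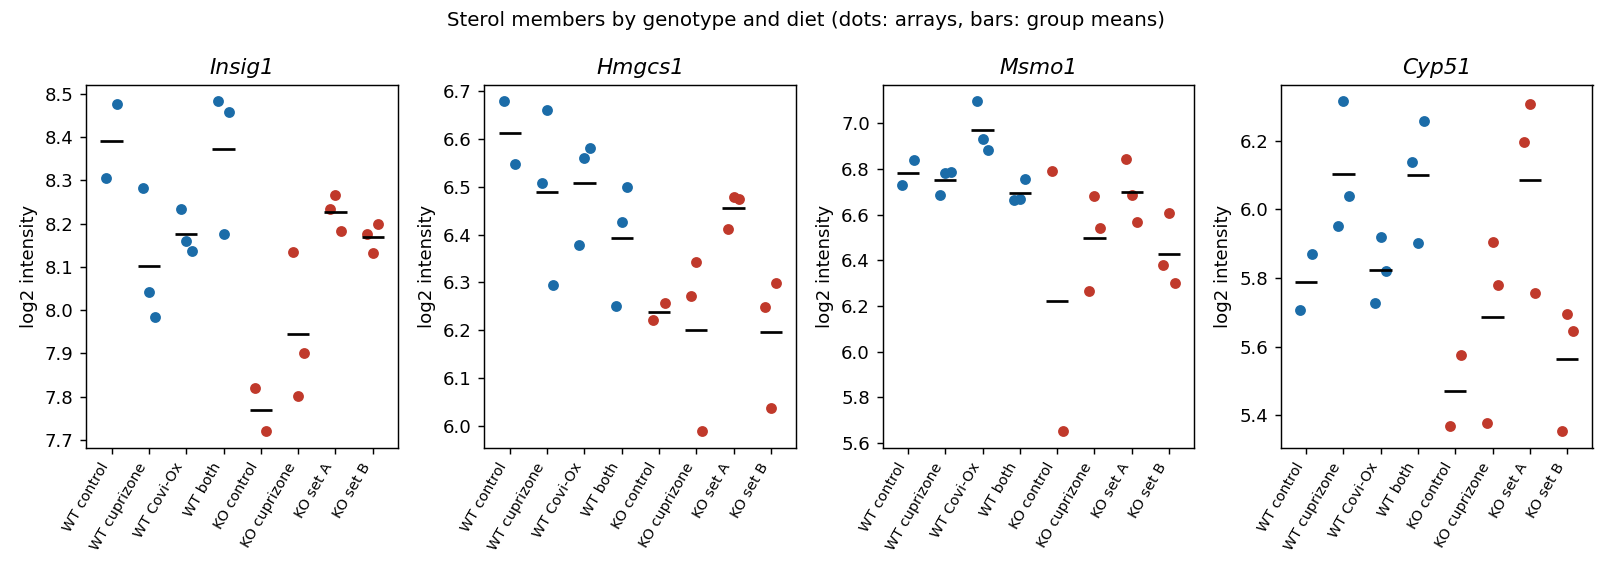
Levels of Insig1, Hmgcs1, Msmo1 and Cyp51 (log2 intensity, vertical axes) on each array, by group, with WT in blue and KO in red. Dots are arrays and bars are group means, and each panel has its own axis range. Insig1 is lowest in KO control (7.82 and 7.72), and the Msmo1 mean of KO control is set by 1 array at 5.65.

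In each branch most KO minus WT differences, averaged over the diets, lay below 0. Of the members, 14 of 16 sterol enzymes, 6 of 7 fatty acid enzymes and 5 of 6 regulators had a KO minus WT difference below 0, against 6209 of 11830 genes in all. The medians were -0.12, -0.17 and -0.08, against -0.01 over all genes. Over 33 alternative fits the sterol median stayed between -0.16 and -0.07 and the fatty acid median between -0.21 and -0.12. These fits reuse the same arrays, and genes on an array are not independent. The members were chosen with earlier results known, and the counts carry no test. By group the sterol branch mean was -0.15 in KO control, -0.03 in KO cuprizone, 0.03 in set A and -0.07 in set B. The WT group means ran from -0.01 to 0.11, so set A lay within them. In the fatty acid branch the KO means were -0.05, -0.07, -0.15 and -0.02 in the same order, against -0.07 to 0.22 in WT. The KO minus WT differences were small. Their 95% interval lay within 1.5-fold in either direction for 15 of 16 sterol enzymes, 5 of 7 fatty acid enzymes and 6 of 6 regulators. This bound was not set against the share of all genes, so it does not mark the members out. Mvd, a decarboxylase of the mevalonate route, had the largest difference above 0, at 0.13 ± 0.07.

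Covi-Ox gave no call among the members in any comparison. For WT Covi-Ox against WT control 0 of 29 members were called by limma (2 at an unadjusted p under 0.05), where 0.0338% of all genes were. The largest differences were those of Idi1 (-0.50 ± 0.57), Hsd17b7 (0.50 ± 0.25) and Dhcr7 (0.39 ± 0.21) in the sterol branch. In the fatty acid branch they were those of Acaca (0.38 ± 0.25), Scd2 (0.38 ± 0.30) and Fads2 (-0.36 ± 0.18), and among the regulators those of Srebf2 (0.25 ± 0.11), Insig1 (-0.21 ± 0.12) and Stard4 (0.20 ± 0.15). Acaca, Scd2, Hsd17b7, Nsdhl, Msmo1 and Srebf2 were higher on all 3 Covi-Ox arrays than on both control arrays. Sqle, Tm7sf2, Acly, Fads2 and Insig1 were lower on all 3. The share of all genes separated in this way was not counted, so this is a description.

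Adding Covi-Ox to cuprizone, WT both against WT cuprizone, also gave 0 of 29 members called by limma (3 at an unadjusted p under 0.05), where 0.152% of all genes were. The largest differences were those of Idi1 (1.02 ± 0.51), Sc5d (-0.38 ± 0.18) and Hsd17b7 (-0.36 ± 0.23) in the sterol branch. They were those of Acaca (0.61 ± 0.22, adjusted p = 0.409), Scd2 (0.21 ± 0.27) and Fads1 (-0.19 ± 0.14) in the fatty acid branch, and of Insig1 (0.27 ± 0.11), Scap (-0.17 ± 0.12) and Stard4 (0.08 ± 0.13) among the regulators. Acaca turned on WT cuprizone array 3, whose 7.05 lay at the level of WT both: without it the difference was 0.97 (adjusted p = 0.00445) and called. Array weights gave 0.84 (adjusted p = 0.0146) and the immediate-early covariate 0.81 (0.0199).

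The next comparisons asked how Covi-Ox and cuprizone combined. The interaction of Covi-Ox with cuprizone in WT called 0 of 29 members (3 at an unadjusted p under 0.05 in limma), where 0.0254% of all genes were called. Its largest values were those of Idi1 (1.52 ± 0.77), Hsd17b7 (-0.86 ± 0.34) and Dhcr7, then Fads2 (0.38 ± 0.25), Acly (0.38 ± 0.19) and Acaca (0.22 ± 0.33), and Insig1, Srebf2 (-0.26 ± 0.15) and Srebf1 (-0.19 ± 0.16). The Covi-Ox diets against the diets without it in WT called 0 of 29 (2 at an unadjusted p under 0.05 in limma), where 0.22% of all genes were. There Acaca differed by 0.50 ± 0.17 (adjusted p = 0.325), Scd2 by 0.30 ± 0.20 and Fads1 by -0.22 ± 0.10. Without WT cuprizone array 3 the Acaca value was 0.68 and called (adjusted p = 0.00643). Idi1 (0.26 ± 0.38), Sc5d (-0.20 ± 0.14), Sqle (-0.14 ± 0.12), Stard4 (0.14 ± 0.10), Srebf2 (0.12 ± 0.08) and Scap (-0.10 ± 0.09) led the other branches.

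In KO, sets A and B together against KO control and KO cuprizone called 0 of 29 members (1 at an unadjusted p under 0.05 in limma), where 0.144% of all genes were. That member was Insig1, at 0.34 ± 0.08 (adjusted p = 0.092), with 8.13 to 8.27 on the 6 arrays of the sets and 7.72 to 8.13 on the other 5. Insig2 (-0.14 ± 0.11), Stard4 (0.10 ± 0.10), Idi1 (0.63 ± 0.38), Nsdhl (0.27 ± 0.18), Cyp51 (0.25 ± 0.12), Fads1 (-0.15 ± 0.10), Acaca (0.14 ± 0.17) and Fasn (0.08 ± 0.09) led the branches. The genotype difference of the Covi-Ox diet effects called 0 of 29 (1 at an unadjusted p under 0.05 in limma), where 0.00845% of all genes were. Its largest values were those of Sc5d (0.39 ± 0.19), Idi1 (0.38 ± 0.54), Fdft1 (0.24 ± 0.12), Acaca (-0.36 ± 0.23), Scd2 (-0.33 ± 0.29), Fads2 (0.23 ± 0.17), Insig1 (0.31 ± 0.11), Scap (0.20 ± 0.12) and Insig2 (-0.18 ± 0.15).

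The 2 sets with conflicting labels were compared as sets. Set A minus set B called 0 of 29 members (3 at an unadjusted p under 0.05 in limma), where 0.00845% of all genes were. Scd2 was 7.29, 7.50 and 6.96 in set A and 7.85, 7.75 and 8.02 in set B, a difference of -0.62 ± 0.27 (adjusted p = 0.516) without overlap, followed by Elovl5 (-0.21 ± 0.15) and Fasn (-0.20 ± 0.12). Cyp51 was 6.20, 6.31 and 5.76 against 5.35, 5.69 and 5.65, a difference of 0.52 ± 0.16 (adjusted p = 0.266), followed by Idi1 (0.31 ± 0.51) and Msmo1 (0.27 ± 0.19). The regulators differed by at most 0.10 in size, led by Insig2 (0.10 ± 0.14), Srebf1 (-0.09 ± 0.11) and Srebf2 (0.09 ± 0.10).

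Against KO control, set A called 0 of 29 members (5 at an unadjusted p under 0.05 in limma), where 0.0338% of all genes were, and set B 0 of 29 (also 5), where 0.744% were. In set A the largest differences were those of Idi1 (0.87 ± 0.57), Sc5d (0.67 ± 0.20), Cyp51 (0.61 ± 0.18), Elovl5 (-0.18 ± 0.17), Acly (-0.18 ± 0.14), Fads1 (-0.16 ± 0.15), Insig1 (0.46 ± 0.12), Insig2 (-0.25 ± 0.16) and Srebf2 (0.07 ± 0.11). In set B they were those of Nsdhl (0.59 ± 0.26), Idi1 (0.57 ± 0.57), Sc5d (0.52 ± 0.20), Scd2 (0.58 ± 0.30), Fads1 (-0.36 ± 0.15), Acaca (0.30 ± 0.25), Insig1 (0.40 ± 0.12), Insig2 (-0.35 ± 0.16) and Scap (0.13 ± 0.13). Insig1 was higher in both sets than in KO control without overlap. Both comparisons share the 2 KO control arrays, and without array 1 of these set A had 4 and set B 3 members called.

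Upstream sequence was examined for the called members. In RefSeq windows of assembly GRCm38.p6, from 250 bases before to 50 after an annotated start, 26 members had 34 windows. Motifs were searched on both strands. The sterol regulatory element core, where SREBPs bind, was first written TCACNCCAC, and it was in 2.94% of the members' windows (Hmgcs1 alone), in 1.14% of the windows of all tested genes and in 1.24% of all 32851 windows. Because such elements vary, 3 other spellings were also searched: TCACCCCAC was in 2.94% of member windows (Hmgcs1) against 0.551% of all, ATCACNCCA in 2.94% (Srebf2) against 0.868%, and TCANNCCAC in 8.82% (Acly, Elovl5 and Hmgcs1) against 4.18%. TCACCCCAC is a case of the first and last spellings, so the Hmgcs1 match is 1 site. The CCAAT box, CCAAT, bound by NF-Y, was in 64.7% of member windows, 36.8% of the windows of tested genes and 37.4% of all. By branch it was in 77.8% of sterol and 50% of fatty acid windows. The GC box, GGGCGG, was in 73.5% of member windows, 60.5% of those of tested genes and 35.7% of all, with 83.3% of sterol and 33.3% of fatty acid windows. The E-box, CACGTG, was in 20.6%, 9.9% and 7.15%. The fatty acid shares rest on 6 windows, and a match of letters is a description.

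Acaca was called in 5 comparisons, Scd2 in 3 and Dhcr7 in 2, and of these Acaca and Dhcr7 had a window. Fads1, Insig1, Hmgcs1, Msmo1 and Srebf2 were called in 1 each, and of these Insig1 and Hmgcs1 are shown, those with a window and the smallest adjusted p. The choice was made after seeing which members had one. Each line gives the 250 bases before the start, 5′ to 3′ on the gene's strand, with matches to the first element spelling, CCAAT box, GC box or E-box in capitals, on either strand.
Acaca, chr11:84195188-84195437, plus strand: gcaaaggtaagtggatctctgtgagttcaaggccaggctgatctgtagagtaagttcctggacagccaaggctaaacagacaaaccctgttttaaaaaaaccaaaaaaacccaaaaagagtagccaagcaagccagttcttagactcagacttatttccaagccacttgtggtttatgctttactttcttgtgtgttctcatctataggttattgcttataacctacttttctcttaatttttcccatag
Dhcr7, chr7:143822917-143823166, plus strand: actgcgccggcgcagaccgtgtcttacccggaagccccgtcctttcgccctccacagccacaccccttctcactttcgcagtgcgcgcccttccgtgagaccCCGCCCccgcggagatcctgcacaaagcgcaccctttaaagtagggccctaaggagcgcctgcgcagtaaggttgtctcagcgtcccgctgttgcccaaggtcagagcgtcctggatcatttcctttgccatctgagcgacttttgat
Insig1, chr5:28071162-28071411, plus strand: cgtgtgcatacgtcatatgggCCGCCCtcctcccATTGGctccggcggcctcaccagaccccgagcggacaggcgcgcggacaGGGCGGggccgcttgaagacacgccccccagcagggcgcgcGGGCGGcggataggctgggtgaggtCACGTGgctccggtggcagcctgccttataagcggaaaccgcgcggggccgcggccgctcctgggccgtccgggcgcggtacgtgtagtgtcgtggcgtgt
Hmgcs1, chr13:119690101-119690350, plus strand: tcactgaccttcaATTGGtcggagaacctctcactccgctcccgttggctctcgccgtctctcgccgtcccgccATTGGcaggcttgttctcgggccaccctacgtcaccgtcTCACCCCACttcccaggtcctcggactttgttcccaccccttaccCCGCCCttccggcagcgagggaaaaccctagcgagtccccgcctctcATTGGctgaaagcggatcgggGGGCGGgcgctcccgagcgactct
The Acaca stretch held none of the motifs and was 39.2% G and C, against 61.6% for Dhcr7, 72.8% for Insig1 and 64.8% for Hmgcs1. It ends in a run of pyrimidines and ag, letters that also stand before internal exons, and whether this start is used in microglia was not tested. Dhcr7 had 3 windows, of which the one farthest upstream is shown, with a GC box 148 bases before the start. A CCAAT box and an E-box were also found in the windows of Dhcr7, outside the stretch shown. Insig1 had a CCAAT box 216 bases, GC boxes 229, 167 and 126 bases and an E-box 101 bases before the start. Hmgcs1 had the element core 137 bases before the start, between CCAAT boxes at 176 and 45 bases, with a further CCAAT box at 237 and GC boxes at 92 and 24.

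Genes around the pathway were followed from lists of non-members. Of 20 tested genes of the same pathways, 4 were called on the WT cuprizone diets, where 12.9% of all genes were: Hacd2, a dehydratase of fatty acid elongation, rose by 0.74 ± 0.13, and Ggps1 (-0.37 ± 0.11), which makes geranylgeranyl diphosphate, Lpin1 (-0.34 ± 0.11), a phosphatidate phosphatase, and Thrsp (-0.34 ± 0.10) fell. On chow 0 of 20 were called by limma, where 2.5% of all genes were, with 5 at an unadjusted p under 0.05. In the Covi-Ox pair 1 of 20, Hacd2, was called (1.06 ± 0.17), where 7.82% of all genes were. Over 4 diets Hacd2 was lower (-0.42 ± 0.09) and Thrsp higher (0.44 ± 0.07) in KO, 2 of 20 against 6.37% of all genes, and on cuprizone they differed by -0.68 ± 0.17 and 0.50 ± 0.14, 2 of 20 against 3.8%.

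Of the 9 tested LXR targets and cholesterol handling genes 6 rose on the WT cuprizone diets, where 12.9% of all genes were called. They were Ch25h, which makes an oxysterol (3.63 ± 0.37, adjusted p = 1.4e-06), Nceh1, a cholesteryl ester hydrolase (1.86 ± 0.18, 6.11e-07), Apoe, the main lipid carrier of brain (0.65 ± 0.10, 0.000158), the exporters Abcg1 (0.60 ± 0.13) and Abca1 (0.37 ± 0.08), and Npc2 (0.32 ± 0.08), which moves cholesterol out of lysosomes. On chow Ch25h and Nceh1 were called, 2 of 9 against 2.5% of all genes, and in the Covi-Ox pair Ch25h, Nceh1, Apoe and Abca1, 4 of 9 against 7.82%. In KO cuprizone against KO control 0 of 9 were called by limma (2 at an unadjusted p under 0.05), where 0.0423% of all genes were, and all 9 differences lay above 0. The difference between the genotypes in the cuprizone effect, tested directly, was called for 0 of 9 by limma (3 at an unadjusted p under 0.05), where 0.228% of all genes were. It was -2.82 ± 0.78 for Ch25h (adjusted p = 0.186) and -1.37 ± 0.37 for Nceh1 (0.174). Over 4 diets Ch25h (-1.62 ± 0.26), Nceh1 (-0.79 ± 0.12) and Apoe (-0.47 ± 0.07) were lower in KO. On the cuprizone diet Ch25h (-2.93 ± 0.49), Nceh1 (-1.35 ± 0.23) and Apoe (-0.66 ± 0.13) were.

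Within groups the members moved together little. Pearson's r of residuals from the group means over the 22 arrays had a median of 0.05 over 120 sterol pairs, 0.31 over 21 fatty acid pairs, 0.08 over 112 pairs between the branches and 0.00 over all pairs of tested genes. The highest pairs were Acaca with Fads2 (0.81) and Acaca with Scd2 (0.77). Without the 3 arrays low in immediate-early genes the fatty acid median was 0.02, over 18 arrays, since the lone KO cuprizone array then left has no group mean to differ from. These are descriptions over arrays that share hybridisation and normalization.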

How the data were processed

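Expression was measured on 22 Affymetrix arrays of sorted microglia in 8 groups. The deposited values are linear intensity per probe set, made by the authors with RMA, per the submitters' processing notes. No version, settings or genome build is given in the sources used here. RMA gives arrays nearly equal distributions, so a change in total RNA per cell cannot be seen. The number of arrays limits the precision.

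Log2 was taken before any test. Of 28098 probe sets 21640 named a single gene in the platform's probe table, and 21553 of these had an identifier in RefSeq (GRCm38.p6). Those with several genes (1321) or unlisted (5137) were left out. Genes above the 50th percentile of an array on at least 2 arrays were tested.

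The tests used limma 3.58.1 (R 4.3.3) in 1 model of 8 group means over all 22 arrays (14 residual and 5.49 prior degrees of freedom), with 17 contrasts. Benjamini-Hochberg adjustment ran over the 11830 genes, two-sided, and called means an adjusted p under 0.05. Unless SD is named, ± gives the model's standard error.

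The members and lists, and the design, were chosen with earlier results of these data known. Named with values are called members and, in a branch without a call, the 3 largest differences. Some further uncalled members are also named. Of each other list up to 4 called genes were planned, but on the WT cuprizone diets every called gene of the LXR list is given. The spellings of the sterol regulatory element, the Insig1 and Hmgcs1 sequences and Cyp51 in the genotype plot were chosen after values or sequences were seen. Replicate numbers were not used to pair arrays in the main model. In 71 same-number pairs the correlation of deviations from group means ran from -0.23 to 0.25 and exceeded 0.1 in 3. With groups of 2 or 3 arrays these deviations depend on each other. Whether same-number arrays shared a day or batch was not tested.

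On data simulated with this design, genes changed 1.5-fold and 2-fold were recovered at 46% and 80% for WT cuprizone against control, 80% and 98% for the WT cuprizone diets, and 92% and 100% for KO against WT over 4 diets. Each fold was given to 50 genes, with normally distributed noise. Fewer genes were changed than were called in the real pooled comparisons, so recovery there may differ. The other comparisons, among them the interactions and those within KO, were not simulated. Alternatives were the replicate block, only the arrays compared, no filter or a 75th percentile filter, quantile normalization, median centring, the mean of a gene's probe sets, array weights, the trend and robust options of limma, removal of the 3 arrays low in immediate-early genes or their mean as a covariate, and leaving out each array.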

Additional observations from a re-analysis of the deposited data

How the results depend on the processing

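Over 33 alternatives no member's call was reversed. The counts of called members stayed within 1.5 times in 519 of 561 cases, and moved in 42. Fitting only the arrays compared gave 0 called members in WT cuprizone against control and 0 in KO against WT on cuprizone. In WT both against WT cuprizone, array weights, removal of the 3 arrays low in immediate-early genes and their covariate each gave 1, and in the WT Covi-Ox diets each gave 1. The covariate gave 1 in the genotype difference of cuprizone effects. For KO against WT on cuprizone the 75th percentile filter gave 2, median centring 3, removal of the 3 arrays 0 and the covariate 2. Quantile normalization gave 1, Acaca, in KO against WT over 4 diets, where Insig1, Hmgcs1 and Msmo1 were lost. The cause was not tested.

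Leaving out 1 array at a time gave 0 to 3 called members in WT cuprizone against control, 1 to 2 in WT both against WT Covi-Ox, 3 to 5 in the WT cuprizone diets, 0 to 1 in WT both against WT cuprizone, 0 to 1 in the WT Covi-Ox diets, 0 to 3 in KO cuprizone against KO control, 0 to 2 in the genotype difference of cuprizone effects, 0 to 3 in KO against WT control, 0 to 2 in KO against WT on cuprizone, 1 to 4 in KO against WT over 4 diets, 0 to 2 in the KO Covi-Ox diets, 0 to 4 in set A and 0 to 3 in set B against KO control. The comparisons without 1 control array assume that the remaining one varies like other groups. With the replicate number as a block the counts were 2 in WT cuprizone against control, 2 in WT both against WT Covi-Ox, 4 in the WT cuprizone diets, 1 in KO against WT on cuprizone and 3 in KO against WT over 4 diets. Scd2 on chow (adjusted p = 0.0583), Srebf2 (0.054) and Msmo1 (0.0612) were then not called. Members near the array median and groups of 2 arrays were measured least well.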
